A study of Homo sapiens with 18 samples.

Results

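The response of PANC-1 cells to THZ1 was measured in 6 of the 18 libraries of the series, chosen by cell line and treatment as the labels give them. They were 3 libraries of PANC-1 cells kept for 6 h with 100 nM THZ1, set against 3 of PANC-1 cells kept for 6 h with the solvent DMSO. PANC-1 is an established line from a human pancreatic ductal adenocarcinoma; the series also holds the pancreatic lines BxPC-3 and MiaPaCa-2 under the same conditions, with 3 libraries a group. All cells shared F12 medium with serum, β-glycerophosphate, ascorbic acid and antibiotics, and the labels call the 3 libraries of a group biological replicates. Each library holds polyadenylated RNA of many cells of this line, so that fewer cells with an RNA and less of it in each cell cannot be told apart.

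THZ1 binds covalently to CDK7, the kinase within the initiation factor TFIIH, and also to the related kinases CDK12 and CDK13. CDK7 phosphorylates the tail of RNA polymerase II as transcription starts, and CDK12 and CDK13 phosphorylate it during elongation. Transcripts with short lives, such as those of immediate early genes, follow changes in synthesis within hours, whereas long-lived mRNAs such as those for ribosomal proteins follow slowly. The comparison asks how the RNA of PANC-1 cells changed within 6 h of the inhibitor.

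The PANC-1 libraries held 14922335, 12698611 and 13252849 reads with THZ1, against 6352482, 15517910 and 13413402 reads with DMSO. Values below are the deposited values times a constant (rescaled units), on which 1 unit stands for 6.34 to 19.6 reads in a PANC-1 library, and fold changes are differences of log2(value + 1), which understate the changes of low genes. DMSO replicate 1, the library with the fewest reads, stood apart. Across genes it correlated with the other PANC-1 libraries at 0.931 to 0.952, where those correlated with each other at 0.991 to 0.996. Over 8325 genes with a mean of at least 10, its log2 deviation from DMSO replicates 2 and 3 correlated with transcript GC content at 0.752 and with log2 transcript length at -0.29. With all libraries the THZ1 response itself correlated with GC content at -0.62, and without DMSO replicate 1 at 0.12, while its correlation with length was 0.05 with all libraries and -0.36 without that library. THZ1 replicate 2 also deviated along GC content from the other THZ1 libraries (r = -0.65), and DMSO replicate 3 from DMSO replicate 2 (r = -0.61). DMSO replicate 1 held high levels of RNAs that are made without a poly(A) tail: the 7SK RNA gene RN7SK stood at 41.7, 29.6 and 25.2 units with THZ1, against 409.6, 26.6 and 20.3 units with DMSO. The summed value of 27 genes that mark BxPC-3 was 12 to 13.3 units in the THZ1 libraries, against 65.7 units in DMSO replicate 1 and 11.5 and 11.8 units in the other DMSO libraries. For 15 genes that mark MiaPaCa-2 the sum was 5.43 to 6.22 units in the THZ1 libraries. It was 37.9 units in DMSO replicate 1 and 5.88 and 7.05 units in the other DMSO libraries, so that this library was high for genes of both lines. It was also high for some genes that are low in both. VWF was at 6.79 units in it, against means of 0.81 units in BxPC-3 and 0.92 units in MiaPaCa-2 with DMSO. PDGFRB was at 3.63 units, against 0.22 and 0.17 units. The share of all low genes that were high in this library was not counted. The part of these features in the results was not tested. Counts and named genes are given with and without that library; all genes called with all libraries were also called without it, so that for these the second value is the log2 change alone where no p is printed.

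**Figure D1:**
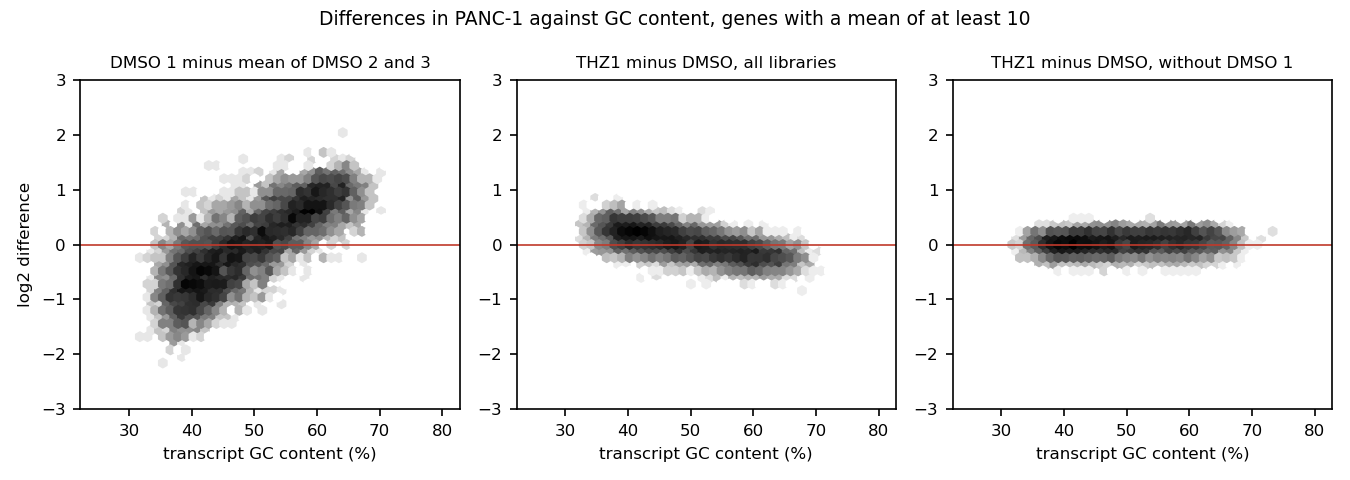
Log2 differences (y axes) against transcript GC content in percent (x axes) for 8325 genes, darker hexagons holding more genes on a log scale. In the left panel DMSO replicate 1 lies above the other DMSO libraries at high GC content and below them at low GC content (r = 0.752), the middle panel shows THZ1 minus DMSO with all libraries (r = -0.62), and the right panel shows it without DMSO replicate 1 (r = 0.12).

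Of the markers of the line and of ductal cells, some were high and others low or without a value. The intermediate filament genes VIM and KRT8 had 1337 to 1599 and 1651 to 2025 units with THZ1, against 1200 to 1609 and 1412 to 2762 units with DMSO. KRT19 was at 706.4 to 912 units with THZ1, against 713.4 to 974.7 units with DMSO. The adhesion gene CDH1 was low, at 2.74 to 3.36 units with THZ1, against 1.96 to 4.89 units with DMSO, while BxPC-3 cells with DMSO averaged 298 units. The keratin gene KRT7 was low too, at 3.17 to 4.20 units with THZ1, against 2.50 to 7.26 units with DMSO. BxPC-3 cells with DMSO averaged 1976 units of it, and EPCAM has no value here. The lowest value stood for 1 read in each library, so that a gene without a value cannot be taken as one without RNA. SMAD4, a tumour suppressor lost in BxPC-3, was at 21.9 to 25.4 units with THZ1, against 12.6 to 24.4 units with DMSO. The acinar gene CTRB1 stayed between 0.07 and 1.42 units, and the endothelial gene VWF was at 0.26 to 0.46 units with THZ1, against 6.79 units in DMSO replicate 1 and 0.20 and 0.64 units in the other DMSO libraries. COL1A1, listed as a fibroblast gene, was not near 0, at 22.0 to 29.4 units with THZ1. It had 53.8 units in DMSO replicate 1 and 27.5 and 23.05 units in the other DMSO libraries. Of the other genes of that list, COL1A2, COL3A1 and PDGFRB were at 0.12 to 0.58 units with THZ1. They had 5.37, 3.63 and 3.63 units in DMSO replicate 1 and 0.26 to 0.69 units in the other DMSO libraries. DCN, LUM and PDGFRA have no value here.

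Few genes passed the test in PANC-1. Among the called genes with a mean of at least 10 units, FOSB, FOS and EGR1 fell the most, all immediate early genes, which cells switch on within minutes of a stimulus. With all 6 libraries, 42 genes rose and 35 fell among 15354 tested (limma, Benjamini-Hochberg adjusted p under 0.05), which is 0.274% and 0.228% of genes and 0.501% together. At an unadjusted p under 0.05 there were 3407, and edgeR on the recovered reads called 0.124% of genes. The test shares 1 estimate of the spread over the 18 libraries, and the SD of residuals across genes was 0.11 to 0.16 in the PANC-1 THZ1 libraries, 0.519, 0.245 and 0.309 in the PANC-1 DMSO libraries and 0.103 to 0.138 in the other lines. Fitted on the 6 PANC-1 libraries alone, limma called 0 genes higher and 0 lower (442 at an unadjusted p under 0.05), and 7 and 5 without DMSO replicate 1. With all 18 libraries edgeR called 7 higher and 12 lower, and DESeq2 353 and 338. In the limma fit of the 3 lines without DMSO replicate 1, 844 genes rose and 201 fell (5.5% and 1.31%, together 6.81%), and edgeR called 7.12%. All 77 genes called with all libraries were called in the same direction without DMSO replicate 1, a fit that shares the other libraries. The values of the 3 THZ1 libraries lay apart from those of the 3 DMSO libraries in all 77. Of all genes 17.1% were so placed (8.34% higher and 8.73% lower with THZ1). Since the 77 were picked by a test on these same libraries, neither is separate support for the calls. In 27 of the 35 lower genes DMSO replicate 1 had the highest value of the 6 libraries, and in 34 of the 42 higher genes it had the lowest. Only 9, 8 and 5 of the 77 were still called without THZ1 replicate 1, 2 or 3, whereas leaving out DMSO replicate 2 or DMSO replicate 3 kept 77 and 77. The called changes were mostly small: with all libraries 1 gene rose and 8 fell by at least 2-fold (0.00651% and 0.0521%), and without DMSO replicate 1, 8 rose and 3 fell by that much (0.0521% and 0.0195%).

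The scale matters for directions. The median log2 change of all genes was -0.07 with all libraries and 0.02 without DMSO replicate 1 on the deposited scale. When libraries were set to equal ERCC totals, by RNA controls added to the extracted RNA, it was -0.31 and -0.32. On that scale 6 genes were higher and 2796 lower with all libraries (0.0391% and 18.2%). All 35 genes that fell on the deposited scale were called lower there as well, but only 3 of the 42 that rose were called higher there, so that 38 of the 77 kept their call. None of the 42 had a negative change there with all libraries, while without DMSO replicate 1, 28 of the 42 did.

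The 5 immediate early genes among the 16 leading genes of the naming rule, FOS, FOSB, EGR1 and DUSP1, which fell, and IER2, which rose, are shown with the DNA before their start sites, so that these can be compared. The RefSeq sequences (GRCh38.p14) run from 250 bases before the start to 50 bases after it, for FOS on the plus strand at chr14:75278578-75278877, FOSB on the plus strand at chr19:45467746-45468045, EGR1 on the plus strand at chr5:138465229-138465528, DUSP1 on the minus strand at chr5:172771146-172771445 and IER2 on the plus strand at chr19:13150161-13150460. The files were made on hg19, and no coordinate of the files is used. Capitals mark matches on either strand to TGACGT, the core of the cAMP response element, to TATAAA, which TBP binds, and to the CArG box that serum response factor binds.
FOS: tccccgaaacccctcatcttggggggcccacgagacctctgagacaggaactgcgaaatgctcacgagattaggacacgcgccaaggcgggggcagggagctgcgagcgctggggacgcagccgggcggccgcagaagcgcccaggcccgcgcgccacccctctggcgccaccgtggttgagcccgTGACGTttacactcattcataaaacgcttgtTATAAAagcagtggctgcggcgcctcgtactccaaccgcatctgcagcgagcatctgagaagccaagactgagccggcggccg
FOSB: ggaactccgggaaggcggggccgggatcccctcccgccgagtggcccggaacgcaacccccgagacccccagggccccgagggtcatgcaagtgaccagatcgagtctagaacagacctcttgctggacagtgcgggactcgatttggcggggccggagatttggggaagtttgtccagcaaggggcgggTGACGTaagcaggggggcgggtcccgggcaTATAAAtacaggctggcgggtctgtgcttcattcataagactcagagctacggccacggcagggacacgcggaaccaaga
EGR1: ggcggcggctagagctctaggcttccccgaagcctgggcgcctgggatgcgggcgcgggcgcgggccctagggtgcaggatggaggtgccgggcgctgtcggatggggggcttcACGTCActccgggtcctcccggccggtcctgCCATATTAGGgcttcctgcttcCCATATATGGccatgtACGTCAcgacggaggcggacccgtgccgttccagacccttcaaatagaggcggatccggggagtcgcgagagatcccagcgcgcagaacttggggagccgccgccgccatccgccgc
DUSP1: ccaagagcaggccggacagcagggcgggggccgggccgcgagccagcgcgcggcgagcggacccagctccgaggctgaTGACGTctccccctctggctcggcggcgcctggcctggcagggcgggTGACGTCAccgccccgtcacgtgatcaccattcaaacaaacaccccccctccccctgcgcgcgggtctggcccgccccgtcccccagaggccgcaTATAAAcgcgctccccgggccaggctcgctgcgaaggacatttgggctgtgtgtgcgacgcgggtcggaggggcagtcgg
IER2: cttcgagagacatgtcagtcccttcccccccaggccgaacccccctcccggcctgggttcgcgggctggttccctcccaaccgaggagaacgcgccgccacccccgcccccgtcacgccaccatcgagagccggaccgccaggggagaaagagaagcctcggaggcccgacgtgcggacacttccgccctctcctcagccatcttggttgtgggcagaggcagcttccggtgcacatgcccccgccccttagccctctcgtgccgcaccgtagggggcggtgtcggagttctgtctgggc
FOS and FOSB each held TGACGT 64 and 60 bases and TATAAA 33 and 30 bases before the start. EGR1 held TGACGT on the minus strand 136 and 67 bases and CArG boxes 105 and 83 bases before it. DUSP1 held TGACGT 172 and 125 bases before the start, a minus-strand match at 123 bases that overlaps the one at 125, and TATAAA 30 bases before it. IER2 held none of the 3, and neither did the promoters of JUN, DUSP2 and DUSP6, which also fell and are not shown, so that TGACGT stood in 4 of the 7 lower immediate early genes. Of 27305 promoters of this length, 8.32% held TGACGT, 12% TATAAA and 1.29% a CArG box. Among the promoters of 9616 tested genes that matched by symbol, the shares were 11.7%, 5.32% and 1.02%. Of the 35 lower genes 26 matched, and 6 of these held TGACGT, 7 TATAAA and 1 a CArG box; of the 42 higher genes 27 matched, and 2, 0 and 0 did. The motifs were chosen after the genes were known, and a match is a description of letters only.

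FOSB, which pairs with JUN proteins in the AP-1 factor, had 13.3, 12.1 and 11.4 units with THZ1, against 84.9, 40.01 and 35.1 units with DMSO. All THZ1 libraries were far below all DMSO libraries, and DMSO replicate 1 was the highest. The log2 change was -1.93 (SE 0.22, limma adjusted p = 0.0011), and -1.54 (SE 0.10, limma adjusted p = 4.58e-09) without DMSO replicate 1. FOS, its paralog, had 9.73, 9.24 and 12.8 units with THZ1, against 31.1, 29.3 and 29.1 units with DMSO. Here the DMSO libraries lay close together, DMSO replicate 1 included. The log2 change was -1.43 (SE 0.11, limma adjusted p = 9.16e-06), and -1.40 (limma adjusted p = 4.07e-08) without that library. EGR1, a zinc finger factor induced by ERK signalling, had 33.4, 28.2 and 31.2 units with THZ1, against 117.8, 59.2 and 59.7 units with DMSO. The groups did not overlap, and the change of -1.25 (SE 0.19, limma adjusted p = 0.0096) was smaller without DMSO replicate 1, at -0.93 (limma adjusted p = 7.81e-07). JUN fell less, by 0.39 on the log2 scale (limma adjusted p = 0.0355), with 167.6, 152.8 and 157.3 units with THZ1, against 216.4, 217.1 and 192.3 units with DMSO; without DMSO replicate 1 its log2 change was -0.36.

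The immediate early list did not fall as a whole. With all libraries 1 of its 29 tested members rose and 7 fell, and without DMSO replicate 1, 4 rose and 9 fell. Of all genes 0.274% rose and 0.228% fell, and 5.5% and 1.31% without that library. The median log2 changes of the list were -0.23 and -0.15, beside -0.07 and 0.02 for all genes. The 7 that fell with all libraries were FOS, FOSB, EGR1, JUN, DUSP1, DUSP2 and DUSP6. Without DMSO replicate 1 they were joined by CYR61, a secreted matrix protein and YAP target (log2 change -0.27, limma adjusted p = 0.00532), and by KLF2, a Krüppel-like factor named after its values were seen (-0.58, limma adjusted p = 0.0187). IER2 rose: it had 55.4, 37.7 and 48.95 units with THZ1, against 33.3, 33.8 and 27.7 units with DMSO, a log2 change of 0.56 (SE 0.12, limma adjusted p = 0.0499) and of 0.60 (limma adjusted p = 0.00398) without DMSO replicate 1. JUNB, another AP-1 subunit, had 78.5, 66.8 and 75.9 units with THZ1, against 74.2, 46.1 and 44.7 units with DMSO. Its groups overlapped through DMSO replicate 1, so that its log2 change was 0.45 with all libraries (limma adjusted p = 0.11) and 0.68 without it (limma adjusted p = 1.91e-06). MYC, the growth regulator, did not pass: it had 61.6, 56.5 and 55.7 units with THZ1, against 50.4, 67.7 and 60.7 units with DMSO (log2 change -0.03, limma adjusted p = 0.827).

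**Figure D2:**
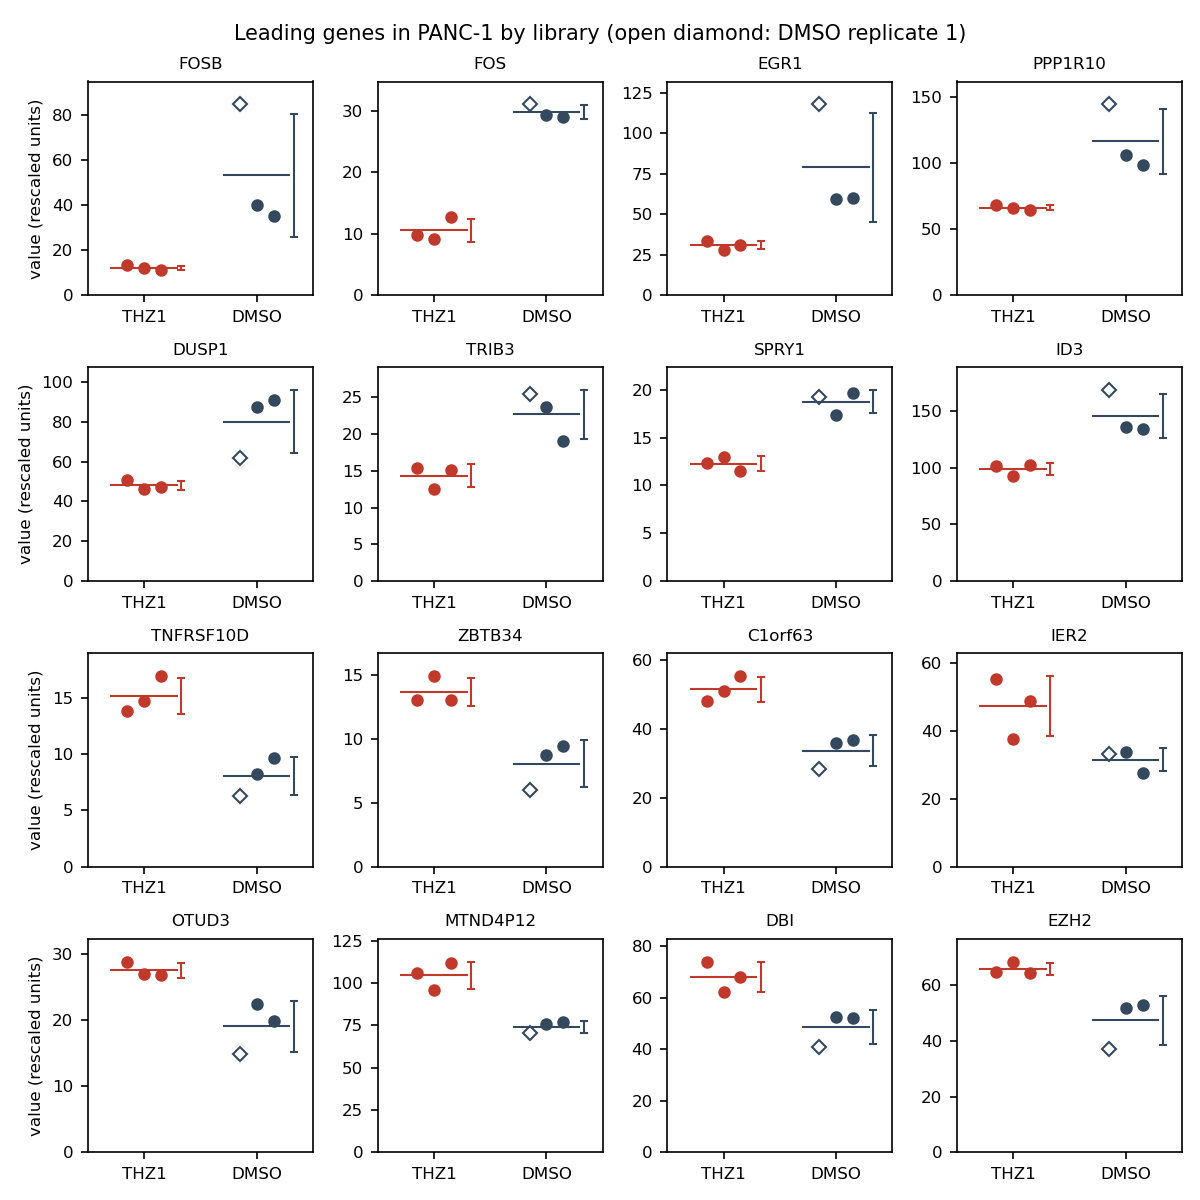
Values in rescaled units (y axes, from 0) of the 8 genes with the lowest and the 8 with the highest log2 change under the naming rule; points are libraries, lines are means and bars are the SD (n = 3), with THZ1 left of DMSO and DMSO replicate 1 drawn as an open diamond. The naming rule required the THZ1 and DMSO points to lie apart in each of the 16 genes, and in FOSB and EGR1 the open diamond lies far above the other DMSO libraries (84.9 and 117.8 units).

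Some genes that damp the MAP kinase pathway fell. Of 16 tested members of the feedback list, 0 rose and 4 fell with all libraries, and the same numbers were called without DMSO replicate 1. Their median log2 changes were -0.16 and -0.14. Of all genes 0.274% rose and 0.228% fell, and 5.5% and 1.31% without that library. The 4 members that fell with all libraries were DUSP1, DUSP2, DUSP6 and SPRY1, and 3 of them also stand in the immediate early list. DUSP1, a phosphatase of ERK, JNK and p38, had 50.7, 46.4 and 47.3 units with THZ1, against 62.04, 87.7 and 90.8 units with DMSO. DMSO replicate 1 was here the lowest DMSO library, and the log2 change was -0.71 (SE 0.13, limma adjusted p = 0.0351) with it and -0.88 (limma adjusted p = 8.06e-06) without it. DUSP2 had a log2 change of -0.93 (limma adjusted p = 0.0238), and of -0.80 without DMSO replicate 1. DUSP6, which acts on ERK, had 17.2, 19.5 and 17.04 units with THZ1, against 22.4, 27.95 and 30.2 units with DMSO, a log2 change of -0.55 (limma adjusted p = 0.0472) with all libraries and of -0.67 without DMSO replicate 1. SPRY1, an inhibitor of growth factor receptor signalling, had 12.3, 13.0 and 11.5 units with THZ1, against 19.3, 17.4 and 19.6 units with DMSO. Its change of -0.57 stood at the edge of the threshold (limma adjusted p = 0.0499), although its groups lay apart, and was -0.56 without DMSO replicate 1.

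The ATF4 stress list, genes that answer amino acid shortage and unfolded proteins, had members that fell too. With all libraries 0 of 19 rose and 3 fell, and without DMSO replicate 1, 1 rose and 5 fell. Their median log2 changes were -0.31 and -0.14. Of all genes 0.274% rose and 0.228% fell, and 5.5% and 1.31% without that library. ATF4, the factor itself, had 95.7, 87.4 and 93.8 units with THZ1, against 146.5, 120.5 and 111.6 units with DMSO (log2 change -0.44, limma adjusted p = 0.0462). TRIB3, a pseudokinase, had 15.4, 12.5 and 15.1 units with THZ1, against 25.4, 23.7 and 19.01 units with DMSO (log2 change -0.62, limma adjusted p = 0.0351). In both genes the groups lay apart and DMSO replicate 1 was the highest library; without it ATF4 was at -0.33 and TRIB3 at -0.54. DDIT4, an inhibitor of mTORC1, had a log2 change of -0.76 (limma adjusted p = 0.0472), and of -0.67 without DMSO replicate 1, and was named after its values were seen. CHAC1, a glutathione-degrading enzyme, and DDIT3, a pro-apoptotic factor also named after its values were seen, were called only without DMSO replicate 1, at -0.72 (limma adjusted p = 0.0265) and -0.62 (limma adjusted p = 0.0352). ID3, an inhibitor of helix-loop-helix factors in the TGF-beta and BMP list, had 101.3, 92.8 and 102.3 units with THZ1, against 168.7, 135.9 and 134.2 units with DMSO (log2 change -0.55, limma adjusted p = 0.0499, and -0.45 without DMSO replicate 1). It was the only call with all libraries among 19 members of that list.

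A pair of genes that end unproductive transcription fell as well. PPP1R10, the PNUTS subunit of a phosphatase that slows RNA polymerase II at gene ends, had 68.1, 65.9 and 64.5 units with THZ1, against 144.1, 106 and 98.5 units with DMSO. The THZ1 libraries lay within a few units of each other and below every DMSO library. Its log2 change was -0.78 (SE 0.12, limma adjusted p = 0.0096), and -0.62 (limma adjusted p = 0.00017) without DMSO replicate 1. ZC3H4, a subunit of the restrictor complex that stops transcription of non-coding RNA, had 43.5, 41.8 and 40.6 units with THZ1, against 61.3, 55.03 and 62.4 units with DMSO. Its log2 change of -0.49 (SE 0.08, limma adjusted p = 0.0238) was almost the same without DMSO replicate 1 (-0.47, limma adjusted p = 0.00236). SRRT, which links the RNA cap to 3′ end formation, had 259.3, 207.3 and 231.4 units with THZ1, against 239, 180 and 156.3 units with DMSO. Its groups overlapped with all libraries (log2 change 0.29, limma adjusted p = 0.179), and it was called higher without DMSO replicate 1 (0.46, limma adjusted p = 0.00138). Of 14 tested members of the termination list, 0 rose and 2 fell with all libraries, and 1 rose and 3 fell without DMSO replicate 1. For all genes the shares were 0.274% and 0.228%, and 5.5% and 1.31% without that library.

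The RNAs of the kinases that THZ1 binds did not pass the test on the deposited scale. CDK7 had 25.2, 23.4 and 23.6 units with THZ1, against 16.1, 26.9 and 25.4 units with DMSO. DMSO replicate 1 lay below all THZ1 libraries and DMSO replicates 2 and 3 above them, and the log2 change was 0.11 with all libraries (limma adjusted p = 0.643) and -0.12 without it (limma adjusted p = 0.507). CDK12 and CDK13 had changes of -0.05 and 0.23 with all libraries (limma adjusted p = 0.761 and 0.408) and -0.14 and -0.05 without DMSO replicate 1. On equal ERCC totals without that library, where the median of all genes was -0.32, CDK7 was at -0.50 (limma adjusted p = 0.0455) and CDK12 at -0.54 (limma adjusted p = 0.0483), so that both were called lower there. RNA levels do not measure whether the drug had bound these proteins. CCNH, the cyclin of CDK7, had 24.6, 24.1 and 24.0 units with THZ1, against 15.5, 18.1 and 20.7 units with DMSO (log2 change 0.41, limma adjusted p = 0.0706), and was called without DMSO replicate 1 (0.31, limma adjusted p = 0.0328), although on equal ERCC totals its change without that library was -0.07. POLR2A, the largest subunit of RNA polymerase II, had 629.5, 607 and 618.5 units with THZ1, against 592.3, 494.8 and 457.4 units with DMSO. The groups lay apart, and the log2 change was 0.27 (limma adjusted p = 0.107) with all libraries and 0.38 (limma adjusted p = 0.000122) without DMSO replicate 1, but -0.01 and -0.02 on equal ERCC totals. Of 12 polymerase II subunits, limma called 0 with all libraries, where 4 had an unadjusted p under 0.05, edgeR called 1 and DESeq2 called 2. Without DMSO replicate 1 limma called 5 higher, beside 5.5% of all genes.

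Among the genes that rose, TNFRSF10D, a decoy receptor for the death ligand TRAIL, led those at a mean of at least 10. It had 13.8, 14.8 and 16.98 units with THZ1, against 6.31, 8.23 and 9.65 units with DMSO. The groups lay apart, with a log2 change of 0.85 (SE 0.11, limma adjusted p = 0.0038), and of 0.70 (limma adjusted p = 2.21e-05) without DMSO replicate 1. ZBTB34, a zinc finger gene, had 13.01, 14.9 and 13.02 units with THZ1, against 5.998, 8.74 and 9.42 units with DMSO (log2 change 0.71, limma adjusted p = 0.0462). C1orf63 had 48.1, 51.1 and 55.3 units with THZ1, against 28.4, 35.97 and 36.7 units with DMSO (log2 change 0.60, limma adjusted p = 0.0148). In these genes DMSO replicate 1 was the lowest of the 6 libraries, and without it ZBTB34 was at 0.54 and C1orf63 at 0.49. OTUD3, a deubiquitinase, DBI, which carries acyl-CoA, and EZH2, which methylates histone H3, rose by 0.53, 0.48 and 0.48 on the log2 scale (limma adjusted p = 0.0472, 0.0472 and 0.0499). Without DMSO replicate 1 they were at 0.37, 0.37 and 0.32 on the deposited scale, and had changes of -0.02, -0.02 and -0.07 on equal ERCC totals without DMSO replicate 1. MTND4P12, a nuclear copy of a mitochondrial gene, rose by 0.49 (limma adjusted p = 0.0472), and by 0.45 without DMSO replicate 1, but reads may be split between it and its mitochondrial source. LINC00926, a low non-coding RNA named after its values were seen, was the 1 gene that rose by at least 2-fold with all libraries: it had 3.05, 2.97 and 2.23 units with THZ1, against 1.26, 0.77 and 0.12 units with DMSO (log2 change 1.18, limma adjusted p = 0.0347, and 1.41 without DMSO replicate 1). ALX4, a homeobox gene also named after its values were seen, was as low and fell: it had 0.23, 0.53 and 0.64 units with THZ1, against 3.95, 1.94 and 1.96 units with DMSO (log2 change -1.27, limma adjusted p = 0.0347, and -1.02 without DMSO replicate 1).

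The lists of mitochondrially encoded mRNAs, oxidative phosphorylation, ribosomal protein and proteasome genes had medians above that of all genes on the deposited scale. The mitochondrially encoded mRNAs, subunits of the respiratory chain, had a median log2 change of 0.60 with all libraries, with 2 of 13 called higher, and of 0.34 without DMSO replicate 1, with 13 of 13 called higher; on equal ERCC totals the medians were 0.32 and -0.06. MT_CO2, a cytochrome oxidase subunit, had 5199, 4484 and 4801 units with THZ1, against 3694, 3843 and 3668 units with DMSO (log2 change 0.37, limma adjusted p = 0.0497). MT_CO3, another subunit, had 3102, 2697 and 2930 units with THZ1, against 1821, 2316 and 2210 units with DMSO (0.46, limma adjusted p = 0.0472). Without DMSO replicate 1 both were at 0.36. All 13 genes were higher in every THZ1 library than in any DMSO library, where 8.34% of all genes were so placed. They made up 4.69% ± 0.111 (SD, n = 3) of all reads, ERCC reads included, with THZ1, against 3.34% ± 1.21 (SD, n = 3) with DMSO. DMSO replicate 1 held 1.95%, and without it the DMSO share was 4.04% ± 0.0035 (SD, n = 2); the exact two-sided permutation p was 0.1 with and without it, the smallest that these numbers of libraries allow.

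The nuclear genes of oxidative phosphorylation showed 4 higher and 0 lower of 76 with all libraries and 30 higher and 0 lower without DMSO replicate 1, with medians of 0.08 and 0.27, and of -0.20 and -0.12 on equal ERCC totals. The 4 were ATP5B, ATP5C1, ATP5F1 and NDUFA4, the first 3 of ATP synthase and the last of the respiratory chain. ATP5B had 891.3, 802 and 881.8 units with THZ1, against 560.8, 729.7 and 682.6 units with DMSO (log2 change 0.39, limma adjusted p = 0.0499). The others rose by 0.31, 0.30 and 0.33, and without DMSO replicate 1 the log2 changes of the 4 were 0.28, 0.27, 0.26 and 0.29. Cytosolic ribosomal protein genes showed 1 higher and 0 lower of 81 with all libraries, which was RPS23 (log2 change 0.34, limma adjusted p = 0.0462, and 0.33 without DMSO replicate 1), and 64 higher and 0 lower without DMSO replicate 1; their medians were 0.08 and 0.27, and -0.19 and -0.13 on equal ERCC totals. Proteasome subunits showed 1 higher of 31, PSMD14 (0.36, limma adjusted p = 0.0472, and 0.27 without DMSO replicate 1), and 16 without DMSO replicate 1, with medians of 0.18 and 0.20. Of 26 glycolysis and hypoxia genes limma called 0 with all libraries (6 at an unadjusted p under 0.05, 0 by edgeR, 2 by DESeq2) and 9 higher without DMSO replicate 1. In these lists the number of calls changed with 1 library, and on equal ERCC totals the medians of proteasome and glycolysis genes without it were -0.20 and -0.16. Calls of all genes changed too, from 0.274% higher to 5.5% higher without DMSO replicate 1.

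**Figure D3:**
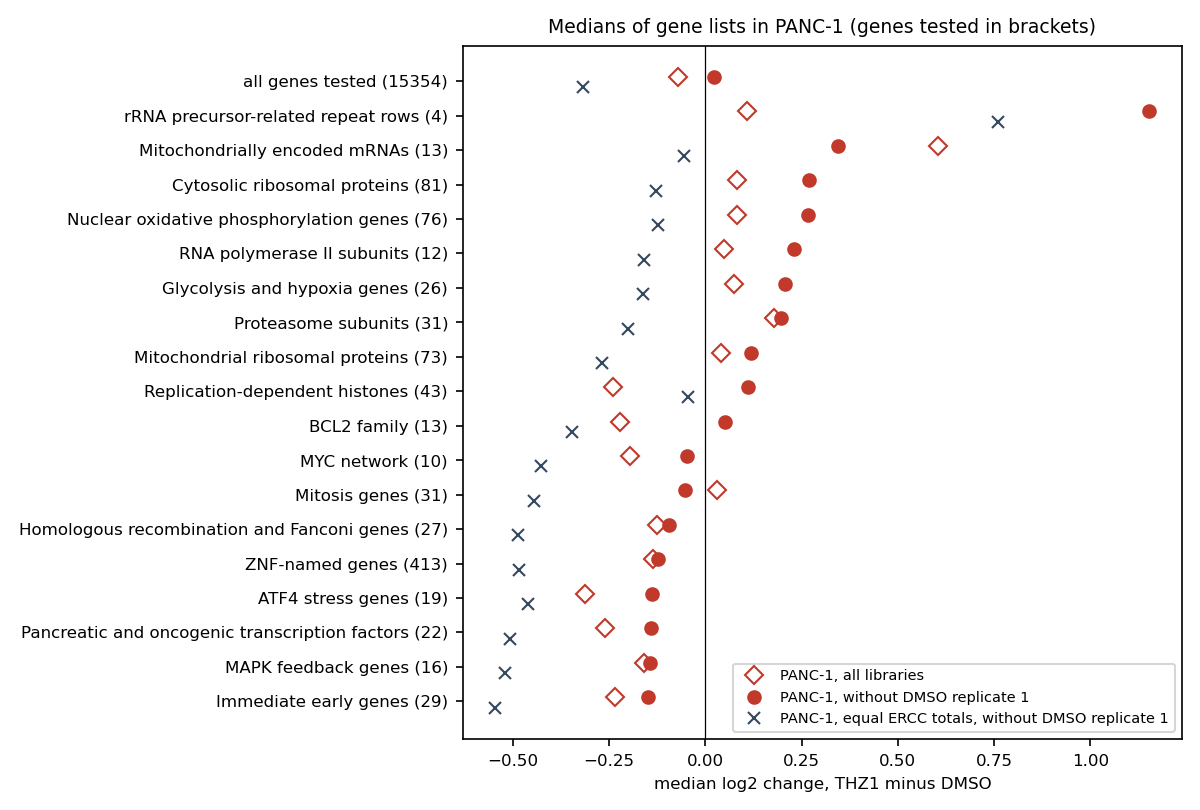
Median log2 change, THZ1 minus DMSO (x axis), of 18 gene lists and of all genes (rows, with the number tested), as open diamonds with all PANC-1 libraries, filled circles without DMSO replicate 1 and crosses for equal ERCC totals without it. Immediate early genes lie at the low end (-0.15 without DMSO replicate 1) and the repeat rows related to the ribosomal RNA precursor at the high end (1.15), while equal ERCC totals place all genes at -0.32.

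The calls of 4 repeat rows related to the ribosomal RNA precursor depended on DMSO replicate 1. MIR3648 and MIR3687 are annotated as miRNAs within the spacer of the ribosomal RNA precursor, and MIR663A is listed with them, so that reads of precursor RNA or of other copies may be counted in these rows. The mature miRNAs of 2 of the rows are shown to tell them from what was counted: they are 21 and 22 bases long, and the libraries hold long polyadenylated RNA, so that a row's value is no level of its miRNA. The RefSeq sequences (GRCh38.p14) are at chr21:8987026-8987046 on the plus strand for miR-3648, at its copy MIR3648-2, and at chr20:26208243-26208264 on the minus strand for miR-663a, with the seed (bases 2 to 8) in capitals.
miR-3648: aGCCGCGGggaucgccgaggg
miR-663a: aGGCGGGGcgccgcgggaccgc
MIR3648 had 283, 324.6 and 270.6 units with THZ1, against 1402, 144.4 and 119.3 units with DMSO. MIR3687 had 97.2, 105.3 and 93.3 units with THZ1, against 629.4, 48.6 and 39.0 units with DMSO. MIR663A had 200.2, 221.9 and 189.7 units with THZ1, against 339.4, 104 and 84.01 units with DMSO. In each of them DMSO replicate 1 was the highest library and the other DMSO libraries were below all THZ1 libraries. With all libraries limma called 0 of the 4 rows (0 at an unadjusted p under 0.05, and 0 by edgeR and DESeq2). Without DMSO replicate 1 it called 4 higher, with log2 changes of 1.15 for MIR3648 (limma adjusted p = 3.87e-06), 1.16 for MIR3687 (limma adjusted p = 7.81e-07), 1.11 for MIR663A (limma adjusted p = 1.39e-07) and 1.22 for RNA5_8SP6, a 5.8S pseudogene (limma adjusted p = 2.81e-05). They stayed higher on equal ERCC totals without that library, at 0.75, 0.77, 0.72 and 0.93. RNAs made without a poly(A) tail, a list chosen after seeing the values, summed to 792.8, 694.1 and 783.5 units with THZ1, against 2564, 678.4 and 553.8 units with DMSO, so that the same DMSO library was high there.

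**Figure D4:**
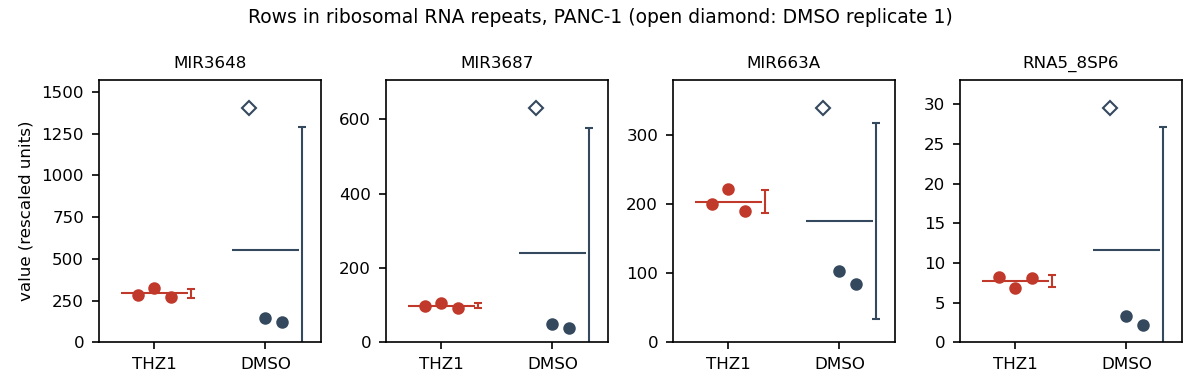
Values in rescaled units (y axes, from 0) of the 4 repeat rows related to the ribosomal RNA precursor, with THZ1 left of DMSO. Points are libraries, lines are means, bars are the SD (n = 3, drawn no lower than 0), and the open diamond is DMSO replicate 1. For MIR3648 the diamond stands at 1402 units, above the THZ1 libraries (270.6 to 324.6 units), and the other DMSO libraries stand at 144.4 and 119.3 units.

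Calls in other lists are set beside those of all genes. Of these, 0.274% rose and 0.228% fell with all libraries, and 5.5% and 1.31% without DMSO replicate 1. Of 413 ZNF-named genes 0 rose and 3 fell with all libraries, and 0 rose and 11 fell without DMSO replicate 1. Their medians were -0.14 and -0.12, beside -0.07 and 0.02 for all genes, and 325 of them had a negative change without DMSO replicate 1. The 3 called with all libraries were ZNF616, ZNF609 and ZNF740, at -0.76, -0.35 and -0.53 (limma adjusted p = 0.0472 for each), and at -0.82, -0.32 and -0.55 without DMSO replicate 1. ZNF740 had 19.4, 16.4 and 18.6 units with THZ1, against 25.4, 26.5 and 27.5 units with DMSO. Among 22 pancreatic and oncogenic transcription factors limma called 0 with all libraries (11 at an unadjusted p under 0.05, 0 by edgeR, 3 by DESeq2) and 1 higher and 3 lower without DMSO replicate 1, among them GATA4, an endoderm factor (-0.45, limma adjusted p = 0.0462), and ETS2, an ERK-regulated factor (-0.35, limma adjusted p = 0.0105). MCL1, an anti-apoptotic BCL2 relative with a short-lived mRNA, had 231.4, 256.6 and 238.6 units with THZ1, against 144.1, 281.5 and 290.3 units with DMSO. DMSO replicate 1 lay on the other side of the THZ1 libraries from its fellows, so that the log2 change was 0.09 with all libraries (limma adjusted p = 0.762) and -0.24 without it (limma adjusted p = 0.0175). The S phase list had 1 call with all libraries, GINS3, a replication helicase subunit, which fell by 0.43 (limma adjusted p = 0.0472), and by 0.42 without DMSO replicate 1, among 33 members.

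Some lists gained their first calls without DMSO replicate 1. They were 4 higher and 2 lower of 19 endoplasmic reticulum stress genes, and 2 and 1 of 23 cholesterol and fatty acid synthesis genes. The mitosis (31 genes) and aryl hydrocarbon receptor (7 genes) lists had 1 higher and 1 lower. Cleavage and polyadenylation (18 genes) had 1 and 2, and snoRNA hosts (15 genes) 0 and 2. Over all genes 5.5% were higher and 1.31% lower. The members of these lists named here are lower ones. TIPARP, an ADP-ribosyltransferase induced by the aryl hydrocarbon receptor, had 50.6, 66.6 and 61.7 units with THZ1, against 39.2, 81.4 and 90.6 units with DMSO. Its log2 change was -0.16 with all libraries (limma adjusted p = 0.648) and -0.53 without DMSO replicate 1 (limma adjusted p = 0.00463). INSIG1, a brake on cholesterol synthesis, SNHG3, a snoRNA host gene, XBP1, a factor of the unfolded protein response, KIF18B, a mitotic kinesin, and CSTF3, a 3′ end cleavage factor, had log2 changes of -0.48, -0.41, -0.30, -0.36 and -0.32 without it (limma adjusted p = 0.00873, 0.00833, 0.0426, 0.0106 and 0.0321), and none of these 5 was called with all libraries. The mitochondrially encoded mRNAs had calls in both fits. In that list MT_ATP8, an ATP synthase subunit whose gene overlaps MT-ATP6, had the highest change without DMSO replicate 1, 0.46 (limma adjusted p = 0.0157).

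The MYC network and the Mediator subunits had no call by limma in either fit. Of 10 MYC network genes 3 and 2 had an unadjusted p under 0.05 with all libraries and without DMSO replicate 1, and edgeR and DESeq2 called 0 in either. Of 29 Mediator subunits 4 and 5 had one; edgeR called 0 and 1 and DESeq2 1 and 1. Of 25 interferon response genes 3 and 2 had one, with 0 and 1 called by edgeR and 0 and 0 by DESeq2, and of 22 NF-kB genes 5 and 4 had one, with 0 and 1 by edgeR and 0 and 1 by DESeq2. The median log2 changes without DMSO replicate 1 were -0.05 for the MYC network, -0.04 for Mediator, 0.10 for interferon genes and 0.03 for NF-kB genes, beside 0.02 for all genes.

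The ERCC controls, added to the extracted RNA, summed to 2710 ± 461 units (SD, n = 3) with THZ1, against 2217 ± 323 units (SD, n = 3) with DMSO. The log2 difference was 0.28 (SE 0.19, exact two-sided permutation p = 0.2), and 0.40 (SE 0.16) without DMSO replicate 1. Endogenous reads per ERCC read numbered 277, 379.99 and 297 in the THZ1 libraries, against 388, 375 and 394 in the DMSO libraries. THZ1 replicate 2 fell among the DMSO libraries and the other THZ1 libraries below them, with a log2 difference of -0.29 (SE 0.14, exact two-sided permutation p = 0.2). With 3 against 3 libraries no p below 0.1 is possible. Of 38 ERCC transcripts 34 were higher with THZ1, and 35 without DMSO replicate 1.

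Set against the other lines on the deposited scale, most genes with 2-fold changes in both other lines had a smaller change of the same sign in PANC-1, while FOS, FOSB and EGR1 fell further there. The test of the difference between the PANC-1 response and the mean response of BxPC-3 and MiaPaCa-2 called 46.2% of genes with all libraries, 1961 higher and 5135 lower in PANC-1, and 56.8% without DMSO replicate 1; on equal ERCC totals the split was 6342 higher and 260 lower, so that the split depends on the scale. The median absolute log2 change was 0.211 in PANC-1 with all libraries and 0.126 without DMSO replicate 1, and 0.52 in BxPC-3 and 0.48 in MiaPaCa-2. Across 8813 genes with a mean of at least 10, which share their libraries and are not replicates, the PANC-1 change correlated with the mean change of the other lines at 0.778 with a slope of 0.188 without DMSO replicate 1, and at 0.391 with a slope of 0.152 with it. Of 514 genes at least 2-fold higher in both other lines, 509 had a positive change in PANC-1 without DMSO replicate 1, with a median of 0.27 there and 1.17 in the other lines; with all libraries 340 did, with a median of 0.091. Of 363 genes at least 2-fold lower in both, 353 had a negative change, with a median of -0.23 there and -1.46 in the other lines; with all libraries 303 did, with a median of -0.22. On the deposited scale gene values summed to 1.31e+06 to 1.35e+06 units in the THZ1 libraries of the other lines, against 800552 to 844038 units with DMSO. In PANC-1 they summed to 835505 to 856249 units with THZ1, against 1000170, 790806 and 773011 units with DMSO. The slopes, medians and 2-fold counts are given on the deposited scale only.

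ZC3H4 and PPP1R10 fell less in PANC-1 than in the other lines. ZC3H4 had log2 changes of -0.49 in PANC-1, and of -3.58 in BxPC-3 and -2.75 in MiaPaCa-2, a difference of 2.67 (limma adjusted p = 2.2e-10). PPP1R10 had changes of -0.78 in PANC-1, and of -2.81 and -2.58 in the others, a difference of 1.91 (limma adjusted p = 2.5e-07). FOS had a change of -1.43 in PANC-1, and of 0.04 in BxPC-3 and 1.15 in MiaPaCa-2, a difference of -2.02 (limma adjusted p = 6.8e-08). FOSB had -1.93 in PANC-1, and -0.44 and 0.86 in the others, a difference of -2.14 (limma adjusted p = 1.5e-05). EGR1 had -1.25 in PANC-1, and -0.15 and 1.57 in the others, a difference of -1.96 (limma adjusted p = 7.2e-06). On the deposited scale these AP-1 and EGR genes fell in PANC-1 while MiaPaCa-2 had positive changes. The differences without DMSO replicate 1 were -1.99 for FOS, -1.75 for FOSB and -1.64 for EGR1. In MiaPaCa-2 the ERCC controls summed to 3890 to 5398 units with THZ1, against 1709 to 1923 units with DMSO. In BxPC-3 they summed to 5043 to 5768 units, against 2111 to 2495 units. Changes of these genes in the other lines on equal ERCC totals are not given here, so that their signs hold for the deposited scale only. Of the 35 genes that fell in PANC-1, 25 had a negative change in both other lines, and of the 42 that rose, 42 had a positive one. The median change of all genes was itself positive on this scale, at 0.25 in BxPC-3 and 0.19 in MiaPaCa-2. The share of all genes with the same sign in both was not counted, so that no shared response is read from these counts.

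**Figure D5:**
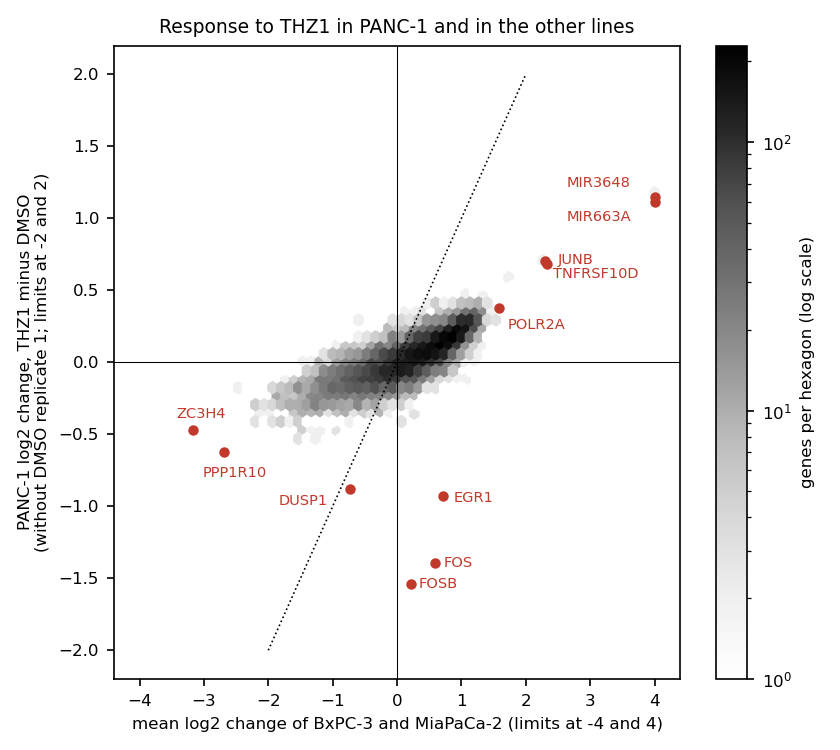
Log2 change of PANC-1 without DMSO replicate 1 (y axis) against the mean log2 change of BxPC-3 and MiaPaCa-2 (x axis) for 8813 genes, darker hexagons holding more genes; the dotted line marks equal changes, and points beyond the stated limits are drawn at them. On the deposited scale, which is drawn here, the cloud is flatter than the dotted line (slope 0.188), and FOS, FOSB and EGR1 lie below it at -1.40, -1.54 and -0.93.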

How the data were processed

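Polyadenylated RNA of 6 PANC-1 libraries was analysed within the 18 of the series, 3 per group. Per the labels' protocols, ERCC controls went into the total RNA after extraction and the libraries were stranded; the submitters' processing notes name STAR and hg19, and the counting program is not given in the sources used here. A signal was deposited, not the unit the design had foreseen: each of the 17026 gene and 38 ERCC values is a whole read count over a whole number per library. All 100% of values came within 0.001 of whole reads, which edgeR 4.0.16 and DESeq2 1.42.0 used as alternatives. The deposited log2 ratios over all lines were not used.

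Values were multiplied by 17.6795, which brings the mean library to 1e+06. Genes at 1 or more in at least 3 libraries (15354) were fitted on log2(value + 1) by the limma-trend method of limma 3.58.1 under R 4.3.3, over 6 group means with 12 residual degrees of freedom, adjusted after Benjamini-Hochberg at 0.05. edgeR, on recovered reads, called 7 genes higher and 12 lower, and without DMSO replicate 1 it called 729 and 364. Spike-in sums were tested by exact two-sided permutation. GC content and length came from GENCODE v29 transcripts, matched by symbol for 85.3% of tested genes. The method was tested on simulated reads with the same dispersion for every gene and library and without a GC trend. That simulation held no library like DMSO replicate 1, so that it does not bear on the effect of that library.

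Members, gene lists and tests were chosen with earlier results of these data known. Named genes were the 8 highest and 8 lowest called in both fits (mean of at least 10, groups apart), the same for genes called only without DMSO replicate 1 at 2-fold, the 2 highest and lowest of each list, and 8 genes always named. Of these 181 genes the text follows some, picked after their values were seen. Alternatives were other scales, filters, pseudocounts, weights, a replicate block and leaving out each library. Hyphens are low lines in the table's names, and 22 names turned into dates were kept without a gene name. Some genes and lists are not reported here.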

Additional observations from a re-analysis of the deposited data

Results flagged for a closer look

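Each value below is the PANC-1 log2 change minus the mean log2 change of BxPC-3 and MiaPaCa-2 on the deposited scale. Each is a difference between lines that passed the test (limma, Benjamini-Hochberg adjusted over 15354 genes, of which 46.2% passed). A negative value means that the PANC-1 response lay below that of the other lines.

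The repeat rows related to the ribosomal RNA precursor differed most: MIR3687 (-4.21), MIR3648 (-4.16), MIR663A (-3.59) and RNA5_8SP6 (-4.44). These differences include DMSO replicate 1; without it they were -2.93, -3.02, -2.98 and -3.44. The immediate early genes FOSB (-2.14), FOS (-2.02), EGR1 (-1.96), JUNB (-1.87), IER2 (-1.22) and DUSP2 (-1.14) also lay lower in PANC-1, though JUNB and IER2 had positive changes in every line on this scale.

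The response also lay lower in PANC-1 for SRRT (-1.44), POLR2A (-1.31), ATF4 (-0.71), CHAC1 (-0.92), TNFRSF10D (-1.45), ZBTB34 (-1.02), C1orf63 (-1.43), OTUD3 (-0.76), MTND4P12 (-0.78), DBI (-0.64), EZH2 (-0.37), ATP5B (-0.82), ATP5C1 (-0.67), ATP5F1 (-0.67), NDUFA4 (-0.93), MT_CO2 (-0.94), MT_CO3 (-0.82), RPS23 (-0.83), PSMD14 (-0.50), LINC00926 (-1.97), SNHG3 (-0.90) and ALX4 (-0.98). Of these, ATF4, CHAC1, SNHG3 and ALX4 had negative changes in PANC-1 and the others positive ones.

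The response lay higher, that is less negative, in PANC-1 for JUN (0.25), SPRY1 (0.98), PPP1R10 (1.91), ZC3H4 (2.67), CSTF3 (1.05), MYC (0.35), GATA4 (1.26), ETS2 (0.66), XBP1 (1.23), KIF18B (1.73), ZNF616 (0.49), ZNF609 (1.10), ZNF740 (1.54), TIPARP (1.28) and INSIG1 (0.34). On equal ERCC totals 6342 of all genes lay higher in PANC-1 and 260 lower.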

How the results depend on the processing

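The counts of called genes in PANC-1 depended on nearly every choice, while FOS, FOSB and EGR1 kept their direction in all 27 alternatives. Against 42 higher and 35 lower genes, leaving out 1 library gave 1 to 1603 higher and 4 to 1731 lower; leaving out DMSO replicate 3 gave the most. The PANC-1 libraries alone gave 0 and 0 (442 at an unadjusted p under 0.05), and 7 and 5 without DMSO replicate 1. Equal ERCC totals gave 6 and 2796 (24 and 2396 without DMSO replicate 1), equal sums 13 and 155, TMM factors 9 and 14 (684 and 261), and DESeq2 factors 6 and 12. No filter gave 9 and 17, a filter of 5 gave 98 higher, and a pseudocount of 5 gave 78 and 67. Sample weights, whose estimate did not converge, gave 1856 and 860. edgeR gave 7 and 12 (729 and 364) and DESeq2 353 and 338 (667 and 425). With each library's GC and length trend removed, an alternative chosen after seeing the data, the counts were 803 and 298 (1481 and 399). It used only the 13096 of 15354 tested genes that matched by symbol, and it also removes any part of the response that follows GC content or length. DESeq2 and the replicate block without DMSO replicate 1 were also chosen after seeing the data.

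The replicate block gave 2 higher and 5 lower, and 220 and 71 without DMSO replicate 1. Deviations of libraries with the same number correlated at 0.455, 0.300 and -0.031, and not every library correlated best with its own number, so the numbers were not taken as pairs; with the block and all libraries 31 of the 62 named genes lost their call, 31 kept their side of the threshold and none changed sign.

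For the difference from the other lines, against 1961 higher and 5135 lower, equal ERCC totals gave 6342 and 260 (6990 and 191 without DMSO replicate 1), equal sums 5445 and 1000, TMM factors 3273 and 2742 (3934 higher without it), DESeq2 factors 3124 and 2896, sample weights 3042 higher, and edgeR 3156 and 2644 (3907 higher without it). Leaving out 1 library gave 1700 to 2677 higher and 4336 to 6050 lower. The log2 differences of ERCC sums (0.18 to 0.43), of endogenous reads per ERCC read (-0.43 to -0.20) and of the mitochondrial mRNA share (0.22 to 0.74) kept their sign without each library.

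Of 1661 values of 62 named genes under the alternatives, 1022 kept direction and side of the threshold, 352 lost the call, 211 gained one and 76 changed sign, 11 of the latter in genes called with all libraries. On equal ERCC totals without DMSO replicate 1 the changes were POLR2A -0.021, CCNH -0.074, OTUD3 -0.015, DBI -0.024, EZH2 -0.069, ATP5B -0.12, ATP5C1 -0.13, ATP5F1 -0.13, NDUFA4 -0.11, MT_CO2 -0.039, MT_CO3 -0.039, RPS23 -0.056 and PSMD14 -0.12; with all libraries POLR2A was at -0.012. Without DMSO replicate 1 CDK7 was at -0.12 (also in the PANC-1 libraries alone), -0.50 on equal ERCC totals, -0.14 with TMM factors and edgeR, -0.15 with DESeq2 and the block, and -0.21 with the trend removed; with all libraries it was at -0.17 on equal ERCC totals, -0.16 with weights and -0.13 with the trend removed, and its largest value without 1 library was 0.24. MCL1 was likewise at -0.24, -0.64, -0.27 with TMM factors and DESeq2, -0.26 with edgeR, -0.21 with the block and -0.22 with the trend removed, and with all libraries at -0.20, -0.24 and -0.010; without 1 library it reached 0.26. CDK13 was at -0.051 (also in the PANC-1 libraries alone), -0.45, -0.076 with TMM factors, -0.065 with edgeR and -0.074 with DESeq2, at -0.051 on equal ERCC totals with all libraries, and at up to 0.40 without 1 library. MIR3687 was at 1.16, 0.77, 1.14 with TMM factors, edgeR and DESeq2 and 1.17 with the block, at 0.98 with weights, and down to -0.83 without 1 library. MIR3648 was at -0.27 on equal ERCC totals, -0.64 with edgeR, -0.62 with DESeq2 and -0.62 to 1.15 without 1 library; RNA5_8SP6 was at -0.0071 on equal ERCC totals, -0.0064 with a pseudocount of 5, -0.13 with edgeR, -0.28 with DESeq2 and -0.40 to 1.22 without 1 library. CDK12 was at 0.043 with TMM factors, 0.050 with DESeq2 factors, 0.021 with edgeR and 0.022 with DESeq2, and MYC at 0.061, 0.068, 0.018 and 0.017 and at 0.051 with the trend removed; without 1 library CDK12 ranged from -0.14 to 0.046, MYC from -0.15 to 0.064 and TIPARP from -0.53 to 0.067. The causes were not tested.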
